A study of Mus musculus with 4 samples.

Results

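The genes described are 9 members of the insulin-like growth factor (IGF) axis, out of 13881 genes in the deposited table. They are 4 genes for secreted IGF-binding proteins (Igfbp2, Igfbp3, Igfbp4 and Igfbp5), 3 genes for receptors (Igf1r, Igf2r and Insr) and 2 genes for receptor adaptors (Irs1 and Irs2). They were chosen by name, because Igfbp4 was among the largest rises in the same libraries, and its relatives were read with it. The difference of Igfbp4 between the groups is therefore given as a description, with no test.

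The ligands IGF1, IGF2 and insulin act through the receptor tyrosine kinases encoded by Igf1r and Insr. The active receptors phosphorylate the adaptor proteins Irs1 and Irs2, which recruit phosphoinositide 3-kinase (PI3K) and switch on the kinase Akt, which promotes growth and survival and holds FoxO transcription factors out of the nucleus. The product of Igf2r has no kinase and carries IGF2 and mannose 6-phosphate-tagged enzymes to lysosomes, and the binding proteins hold IGFs in the extracellular space, where they can block or prolong their action. In the developing brain the pathway is known for supporting the growth and survival of neural progenitors.

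RNA was sequenced from C57bl/6 mouse neural progenitor cells, taken from the embryonic day 14 forebrain and grown as dividing cultures in DMEM/F-12 with 2% B27 without vitamin A (a supplement that contains insulin), EGF at 20 ng/ml and FGF-2 at 20 ng/ml. The shRybp group was infected with a lentivirus for a short hairpin RNA against Rybp, a subunit of Polycomb repressive complex PRC1, and the other group carries the label ctrl, with no vector named. Both groups hold 2 libraries, not stated to be separate cultures or animals, so the spread behind each p-value may be technical. Both groups share the strain, the age and the medium.

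Libraries held 14355308 to 17598873 counts. Rybp stood at 4.43 and 3.95 FPKM (fragments per kilobase of gene and per unit of sequencing depth) in the control libraries and at 3.01 and 2.66 in the shRybp libraries, so 67.6% of the mean control level remained. The progenitor markers Sox2 (138 and 130 FPKM in the controls) and Nes (149 and 145 FPKM) were abundant, as were Fabp7 and Vim. Of the 10 progenitor markers tested, 2 rose (Nes, log2 ratio 0.67, and Vim, 0.27) and 6 fell, beside 16.3% and 16.7% of all genes tested. The median of the 10 markers was -0.40. The falls ranged from Hes5 (-1.79), a Notch target, to Sox9 (-0.34), with Sox2 at -0.46. Of 10 markers each of endothelial cells, pericytes with smooth muscle, meningeal fibroblasts and choroid plexus, 2, 3, 2 and 1 could be analysed here. The summed level of each of these 4 lists was at most 3.36 FPKM in any library. The microglial receptor gene Csf1r had 4 and 47 counts in the controls and 44 and 1 in shRybp, so control 2 and shRybp 1 stood apart, at 0.530 FPKM or less.

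Within the axis the transcripts of binding proteins were far more abundant than those of receptors and adaptors. In the controls the mean level was 427 FPKM for Igfbp2 and 144 for Igfbp3, above 99.6% and 98.4% of the genes in the table. Igfbp5 (33.9 FPKM) and Igfbp4 (16.0) followed, then Insr (9.59), Irs2 (9.27), Irs1 (8.03), Igf2r (7.66) and Igf1r (5.65). Among neighbours in this order, Insr and Irs2 changed places between the 2 controls (8.93 against 9.01 and 10.2 against 9.53 FPKM). Irs1 stood above Igf2r in both controls (7.62 against 7.16 and 8.44 against 8.15), though their values overlapped between libraries. In shRybp Igfbp4 (37.5 FPKM) stood above Igfbp5 (13.7), whose values overlapped with those of Igf2r (13.4), Insr (12.4) and Irs2 (12.05).

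**Figure D1:**
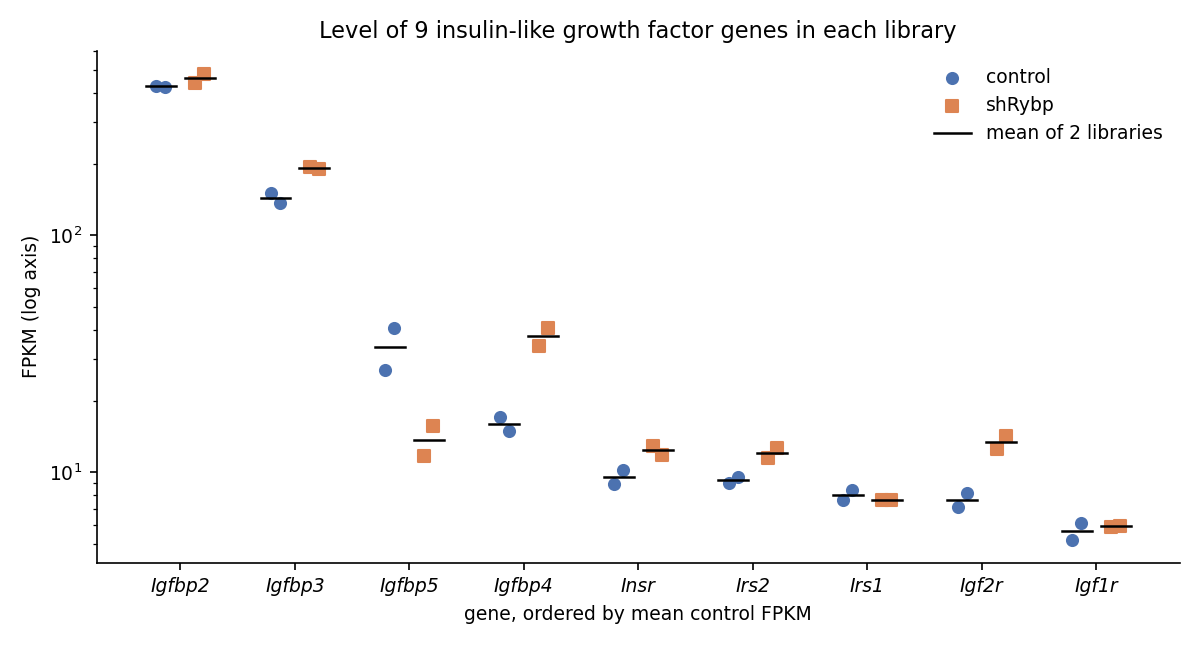
FPKM of each gene on a log axis in the 2 control libraries (circles) and the 2 shRybp libraries (squares), with a bar at the mean of each group. Igfbp5 fell from a mean of 33.9 to 13.7 FPKM while Igfbp4 went from 16.0 to 37.5, and the points of Igf1r and Irs1 overlap between groups.

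Of the 8 members other than Igfbp4, 4 rose in shRybp (Igfbp3, Igf2r, Insr and Irs2), 1 fell (Igfbp5) and 3 did not pass the test (Igfbp2, Igf1r and Irs1). Differences are given as the log2 ratio of shRybp over control from the edgeR fit (the log2 fold change). A gene is said to rise or fall where edgeR's quasi-likelihood test gave a Benjamini-Hochberg adjusted p under 0.05 over all 12062 genes tested. By that rule 33.0% of all tested genes were called, 16.3% as higher and 16.7% as lower in shRybp. The median log2 ratio of the 8 genes was 0.21, against 0.00 over all genes tested. In FPKM the groups were separate for 6 of these 8 members, 5 higher and 1 lower in shRybp. Of all tested genes 67.5% had groups that did not overlap, 38.5% higher and 29.0% lower.

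**Figure D2:**
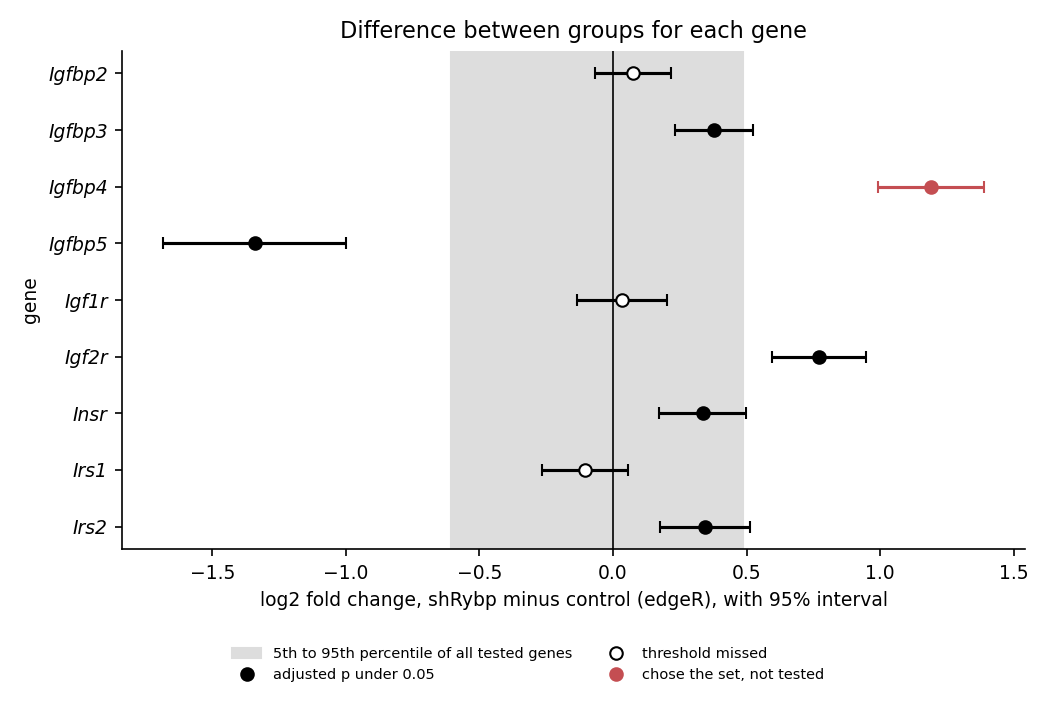
Log2 fold change of each gene, shRybp minus control, with its 95% interval from the edgeR fit. The interval of Igfbp4 does not allow for its choice by this same rise. The grey band spans the 5th to 95th percentile of all tested genes (-0.61 to 0.49), and Igfbp4 (1.19), Igfbp5 (-1.34) and Igf2r (0.77) lie outside it.

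Among the binding protein genes, Igfbp4 and Igfbp5 lay on opposite sides of zero. Igfbp4 (ENSMUSG00000017493, mm10 chromosome 11, 99041244 to 99054392, plus strand) encodes a binding protein that mostly restrains IGF action. The control libraries had 17.1 and 14.9 FPKM (1332 and 1052 counts) and the shRybp libraries 34.2 and 40.8 FPKM (2170 and 2958 counts). Both shRybp libraries were above both controls, and the mean was 2.34-fold higher (log2 ratio 1.19, SE 0.09, 95% interval 0.99 to 1.39, given without a test). The interval does not allow for the choice of Igfbp4 by this same rise, so it cannot serve as a test. Of all tested genes 35 had a larger log2 ratio.

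Igfbp5 (ENSMUSG00000026185, chromosome 1, 72857932 to 72874884, minus strand) encodes the most conserved of the binding proteins, which also attaches to extracellular matrix. Its level was 26.99 and 40.8 FPKM in the controls (2858 and 3914 counts), against 11.7 and 15.6 FPKM after shRybp (1010 and 1543 counts). The groups did not overlap, but the replicates of each group stood apart by 1.51-fold and 1.34-fold, a difference between controls larger than that of 98.2% of tested genes. The mean was 2.48-fold lower in shRybp (log2 ratio -1.34, SE 0.16, 95% interval -1.68 to -0.998, edgeR adjusted p = 5.1e-05). With 1 library left out at a time the log2 ratio lay between -1.61 (without control replicate 1) and -1.03 (without control replicate 2).

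Igfbp3 (ENSMUSG00000020427, chromosome 11, 7206086 to 7213923, minus strand) encodes the main IGF carrier of blood. It had 151 and 137 FPKM in the controls and 194 and 190 in shRybp, so the groups did not overlap. It rose 1.33-fold (log2 ratio 0.38, SE 0.07, 95% interval 0.23 to 0.53, edgeR adjusted p = 0.00097).

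Igfbp2 (ENSMUSG00000039323, chromosome 1, 72824503 to 72852474, plus strand), the leading binding protein gene of the fetal brain, had 429 and 424 FPKM in the controls and 441 and 480 in shRybp. FPKM values were slightly higher in shRybp, and the gene did not pass the test (log2 ratio 0.07, 95% interval -0.07 to 0.22, edgeR adjusted p = 0.42). After TMM scaling, which corrects for the composition of each library, Igfbp2 was not among the 5 members whose shRybp libraries both lay above both controls.

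Igfbp2 and Igfbp5 are neighbours that face each other tail to tail, with 5457 bases between their annotated ends. The nearest gene of the table beyond Igfbp2 is Rpl37a, a ribosomal protein gene 111 kb away, which did not pass the test (log2 ratio -0.05, edgeR adjusted p = 0.57). Igfbp4 lies 17.1 kb from Top2a, the DNA topoisomerase gene of dividing cells, which runs in the opposite direction and had 106, 100.1, 109 and 105 FPKM in control 1, control 2, shRybp 1 and shRybp 2. Top2a did not pass the test (log2 ratio 0.03, edgeR adjusted p = 0.79), nor did Smarce1, a chromatin remodelling gene on the other side (-0.10, edgeR adjusted p = 0.25). Of 12 tested neighbours of the 9 genes that are no members, 2 rose and 1 fell, beside 16.3% and 16.7% of all genes tested. These were Adcy1 beside Igfbp3 (0.35), Rhbdd1 beside Irs1 (0.45; edgeR adjusted p = 0.053 without shRybp replicate 2) and Arrdc4 beside Igf1r (-0.29). The call of Arrdc4 ended under 8 of 12 alternatives, leaving out control replicate 2 (edgeR adjusted p = 0.14), shRybp replicate 1 (0.099) or shRybp replicate 2 (0.13) among them. The other tested neighbours, Tns3, Ttc23, Mrpl18, Arhgef18, Dock10 and Col4a1, lay between -0.15 (Ttc23) and 0.20 (Mrpl18) and did not pass. Farther from Igfbp4, within 500 kb, the replication gene Cdc6 (0.64, edgeR adjusted p = 0.00021) and the proteasome gene Psmd3 (0.36) rose, and Thra (-0.48), Ormdl3 (-0.36) and Wipf2 (-0.34) fell, all named after their values were seen.

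**Figure D3:**
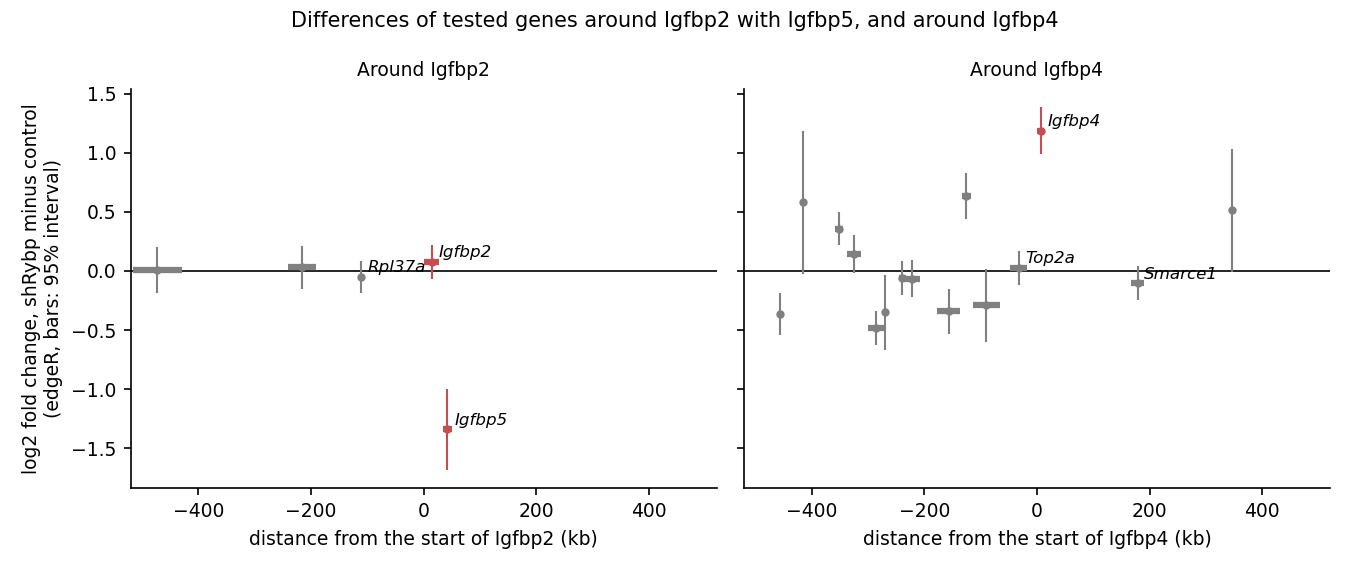
Log2 fold change (points, with 95% intervals) of tested genes against distance in kb from the start of Igfbp2 (left) and of Igfbp4 (right), within 500 kb, with horizontal bars for gene extents and binding protein genes in red. Igfbp5 (-1.34) stands apart from Igfbp2 (0.07) next to it, and Igfbp4 (1.19) from Top2a (0.03) and Smarce1 (-0.10). Of the 14 other tested genes around Igfbp4, 2 rose and 3 fell, beside 16.3% and 16.7% of all genes tested.

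The sequences just upstream of these genes are shown because Igfbp2 and Igfbp5 share a locus but not a change, and Igfbp4 had the largest rise of the family. They are the 250 bases before the RefSeq start (GRCm38.p6, the assembly of mm10), 5′ to 3′ on the strand of the gene. Igfbp2 lies at chr1:72824230-72824479 (plus strand), Igfbp5 at chr1:72874866-72875115 (minus) and Igfbp4 at chr11:99040994-99041243 (plus). Capitals mark exact matches, on either strand, to a TATA box (TATAAA), an E-box (CACGTG), a GC box (GGGCGG), a FoxO motif (TGTTTAC) or a motif of the Notch effector RBPJ (GTGGGAA).
Igfbp2: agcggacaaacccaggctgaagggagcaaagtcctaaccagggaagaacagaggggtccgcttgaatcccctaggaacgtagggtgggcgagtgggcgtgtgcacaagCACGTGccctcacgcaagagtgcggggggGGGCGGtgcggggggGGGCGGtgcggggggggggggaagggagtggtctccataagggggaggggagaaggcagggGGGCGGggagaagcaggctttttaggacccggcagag
Igfbp5: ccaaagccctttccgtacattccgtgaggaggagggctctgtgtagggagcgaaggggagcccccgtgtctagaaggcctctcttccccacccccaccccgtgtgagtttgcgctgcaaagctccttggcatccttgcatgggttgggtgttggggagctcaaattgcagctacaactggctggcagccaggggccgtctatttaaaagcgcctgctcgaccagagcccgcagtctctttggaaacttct
Igfbp4: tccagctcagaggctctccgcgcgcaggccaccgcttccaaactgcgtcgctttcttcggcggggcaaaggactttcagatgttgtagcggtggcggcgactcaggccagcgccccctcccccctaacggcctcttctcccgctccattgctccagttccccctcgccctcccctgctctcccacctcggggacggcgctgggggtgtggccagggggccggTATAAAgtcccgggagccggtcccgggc

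Of these windows that of Igfbp2 held 1 E-box and 3 GC boxes, that of Igfbp4 held 1 TATA box, and that of Igfbp5 held none of the 5 motifs. Over 32851 RefSeq windows of the same length, 12.4% held the TATA box, 6.02% the E-box, 32.7% the GC box, 3.17% the FoxO motif and 5.42% the RBPJ motif. Windows were found for 8 of the 9 members, Insr being without one, and none of the 8 held the FoxO or the RBPJ motif. The CpG dinucleotide, in which promoters bound by Polycomb complexes are often rich, occurred 10 times in the window of Igfbp5, 14 times in Igfbp2 and 22 times in Igfbp4, against a median of 6 over all windows. The other members had 27 (Igf2r) to 42 (Igf1r). A match is a description of the letters and shows no binding.

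The make-up of the binding protein transcripts is described by the share of each gene in their summed FPKM. The 4 shares are tied, since a larger share of 1 gene leaves less for the others, and the rise of Igfbp4 chose the set. The 4 genes summed to 624 and 617 FPKM in the controls and 681 and 727 in shRybp. Igfbp2 gave 68.8% and 68.7% of that sum in the controls and 64.8% and 66.1% in shRybp. Its share was lower although its own FPKM was slightly higher in shRybp and the gene did not pass the test. The share of Igfbp3 went from 24.2% and 22.2% to 28.5% and 26.2%. The share of Igfbp4 went from 2.74% and 2.42% to 5.02% and 5.61%, and that of Igfbp5 from 4.32% and 6.62% to 1.72% and 2.15%. The ratio of Igfbp4 to Igfbp5 was 0.63 and 0.37 in the controls and 2.92 and 2.61 in shRybp, so Igfbp5 led in both controls and Igfbp4 in both shRybp libraries. These shares and ratios were not tested.

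**Figure D4:**
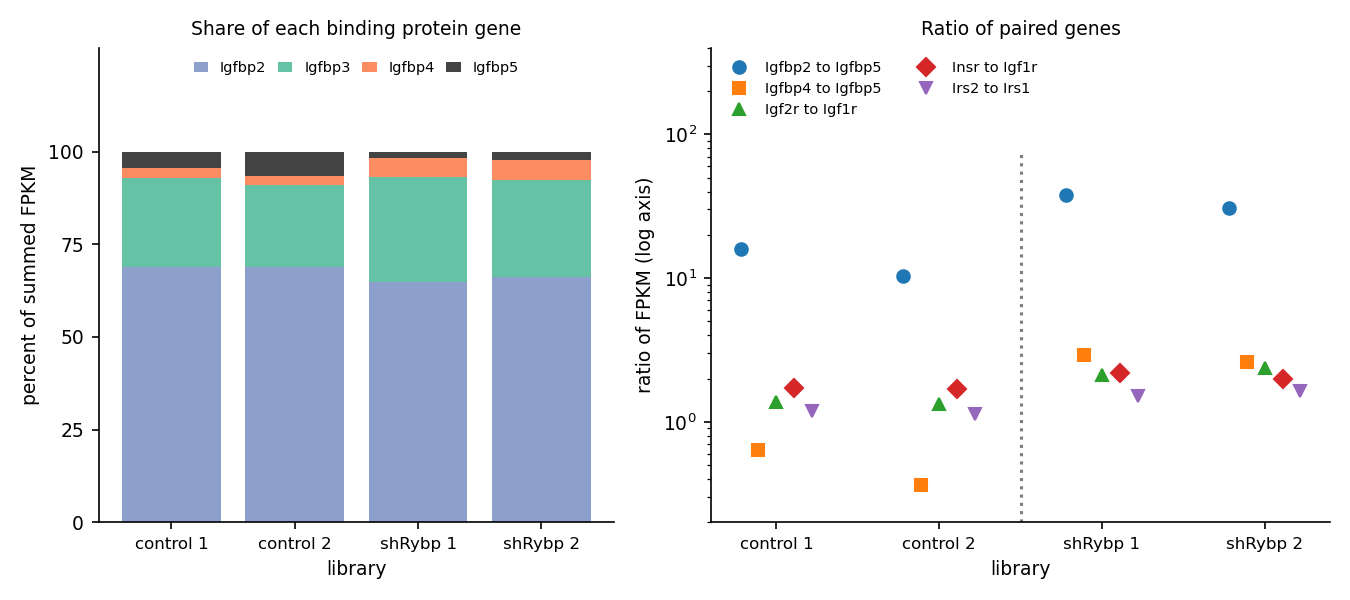
Left, percent of the summed FPKM of the 4 binding protein genes contributed by each gene in each library. Right, ratio of FPKM between paired genes in each library on a log axis; the Igfbp4 to Igfbp5 ratio lies below 1 in both controls and at 2.61 or above in both shRybp libraries.

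Of the receptor genes, the scavenging receptor changed most. Igf2r (ENSMUSG00000023830, chromosome 17, 12682406 to 12769664, minus strand) stood at 7.16 and 8.15 FPKM in the controls (1175 and 1212 counts) and at 12.6 and 14.2 FPKM after shRybp (1681 and 2174 counts). The groups did not overlap, and the gene rose 1.75-fold (log2 ratio 0.77, SE 0.08, 95% interval 0.60 to 0.95, edgeR adjusted p = 2.1e-05). Igf2r is an imprinted gene, and the non-coding gene Airn, known for silencing its paternal copy, overlaps it by 28.4 kb on the opposite strand. No label or header states whether counting used strand, so reads of the shared stretch cannot be told apart. Airn had 47 and 36 counts in the controls and 80 and 77 in shRybp. Its mean level of 0.53 and 1.11 FPKM left it out of the main test, and it rose in the fit with no filter on low values (log2 ratio 1.01, edgeR adjusted p = 0.0028).

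The upstream window of Igf2r (chr17:12769707-12769956, minus strand, same source and marking as above) is shown because it held 2 E-boxes, with 3 GC boxes of which 2 run into each other.
Igf2r: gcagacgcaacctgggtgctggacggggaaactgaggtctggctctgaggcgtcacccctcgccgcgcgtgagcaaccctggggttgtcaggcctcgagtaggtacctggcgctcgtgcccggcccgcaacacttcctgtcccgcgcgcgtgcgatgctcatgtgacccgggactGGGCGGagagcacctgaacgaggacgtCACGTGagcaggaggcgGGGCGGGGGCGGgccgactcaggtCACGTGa
The windows of Irs1 and Irs2 held 1 E-box each, as did that of Igfbp2, so the motif was present beside genes that rose and genes that did not pass the test.

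Insr (ENSMUSG00000005534, chromosome 8, 3122061 to 3279617, minus strand), the insulin receptor gene, had 8.93 and 10.2 FPKM in the controls and 12.9 and 11.9 in shRybp. The groups did not overlap and the gene rose 1.29-fold (log2 ratio 0.34, SE 0.07, 95% interval 0.17 to 0.50, edgeR adjusted p = 0.0042). Igf1r (ENSMUSG00000005533, chromosome 7, 67952827 to 68233668, plus strand), the main IGF receptor gene, had 5.20 and 6.10 FPKM in the controls and 5.88 and 5.96 in shRybp. Its groups overlapped and it did not pass the test (log2 ratio 0.03, 95% interval -0.13 to 0.20, edgeR adjusted p = 0.77). The ratio of Insr to Igf1r was 1.72 and 1.68 in the controls and 2.19 and 1.99 in shRybp, and that of Igf2r to Igf1r was 1.38 and 1.34 against 2.13 and 2.38. Both ratios were higher in each shRybp library than in each control.

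Of the adaptor genes, Irs2 stood above Irs1 in every library. Irs2 (ENSMUSG00000038894, chromosome 8, 10984681 to 11008458, minus strand) had 9.01 and 9.53 FPKM in the controls and 11.4 and 12.6 in shRybp, with no overlap. It rose 1.30-fold (log2 ratio 0.34, SE 0.08, 95% interval 0.18 to 0.51, edgeR adjusted p = 0.0047), a call that ended without shRybp replicate 2 (0.27, edgeR adjusted p = 0.065). Irs1 (ENSMUSG00000055980, chromosome 1, 82233101 to 82291416, minus strand) had 7.62 and 8.44 FPKM in the controls and 7.62 and 7.67 in shRybp. Its groups overlapped and it did not pass the test (log2 ratio -0.11, 95% interval -0.27 to 0.06, edgeR adjusted p = 0.31). The ratio of Irs2 to Irs1 was 1.18 and 1.13 in the controls and 1.502 and 1.65 in shRybp. In the annotation Insr, Irs1 and Irs2 also overlap genes on the opposite strand, which were not analysed here.

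Other genes of the pathway were read from 9 lists, of which 105 genes were tested, each counted once. Of these 15 rose and 23 fell, beside a background of 16.3% and 16.7%, and the median log2 ratio was -0.05. Without shRybp replicate 2 only 9 rose. Of 6 ligand genes listed, Insl6, a relaxin-family relative, was tested and did not pass (1.52 and 1.24 FPKM in the controls, 0.69 and 1.46 in shRybp, edgeR adjusted p = 0.55), and Igf1, Igf2, Ins1, Ins2 and Insl3 were not analysed here. Of the other binding protein genes, Igfbp7 (2.06 and 2.69 FPKM against 2.88 and 3.52, edgeR adjusted p = 0.20) and Igfbpl1 (1.10 and 1.06 against 1.60 and 1.22, edgeR adjusted p = 0.24) did not pass. In these 2 lists, and among the 2 tested Igf2 mRNA-binding protein genes, 0 genes passed in edgeR, 0 had an unadjusted p under 0.05, and 0 passed in DESeq2 or limma.

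Of 12 listed genes for proteases that cut binding proteins and for inhibitors of such proteases, 8 were tested. Pappa, Pappa2, Adam28 and Mmp2 were not analysed here. Among the 8 tested, 3 fell and 0 rose in edgeR (background 16.7% and 16.3%), with a median of -0.20. At an unadjusted p under 0.05, 1 was higher, and 1 gene rose under 5 of the 12 alternatives, without control replicate 2 or shRybp replicate 1 among them, while DESeq2 and limma called 0 as higher. Htra1, a serine protease gene, fell from 12.8 and 15.3 to 10.1 and 11.4 FPKM (log2 ratio -0.41, edgeR adjusted p = 0.0088). Plat, which encodes tissue plasminogen activator, fell by 0.38 and the membrane metalloprotease gene Adam9 by 0.22 on the log2 scale. The call of Htra1 ended without control replicate 2 (edgeR adjusted p = 0.066) and that of Adam9 without shRybp replicate 1 (0.054).

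Of 9 genes for mannose 6-phosphate sorting, the other task of Igf2r, 4 rose and 2 fell (background 16.3% and 16.7%), with a median of 0.19. The sorting adaptor genes Gga2 (0.50), Gga3 (0.34) and Gga1 (0.30) rose with M6pr (0.23, named like Vps35 after its value was seen), which encodes the smaller mannose 6-phosphate receptor. Gnptg (-0.28), a subunit of the enzyme that makes the tag, and the retromer gene Vps35 (-0.20) fell. The call of Gga2 was kept under each of the 11 alternatives that gave it a value, and DESeq2 called 1 of the 9 as higher and 1 as lower. Leaving out 1 library ended the others. The highest adjusted p reached was 0.24 for M6pr (without control replicate 2), 0.30 for Gga3 and 0.22 for Vps35 (both without shRybp replicate 2), 0.11 for Gga1 (without control replicate 1) and 0.084 for Gnptg (without shRybp replicate 1).

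Among 26 adaptors and inhibitors of the receptors, 6 rose and 2 fell (background 16.3% and 16.7%), with a median of 0.00. Grb14, an inhibitor that docks on the active insulin receptor, went from 1.76 and 1.73 FPKM in the controls to 3.92 and 4.31 in shRybp (log2 ratio 1.204, SE 0.10, edgeR adjusted p = 3.1e-06). Its relative Grb10, an imprinted inhibitor of the same receptors, rose from 2.58 FPKM in both controls to 4.51 and 4.36 (log2 ratio 0.74, SE 0.09, edgeR adjusted p = 4.4e-05). Shc1, an adaptor that links receptors to Ras, rose from 2.77 and 3.19 to 5.32 and 5.78 FPKM (log2 ratio 0.86, edgeR adjusted p = 4.1e-05), and the docking protein gene Dok1 rose by 0.82. The others called were, named after their values were seen, Sh2b3 (0.51), Socs3 (0.60), Gab1 (-0.26) and Crk (-0.21). The call of Socs3 ended under 3 of the 4 settings that left out 1 library, with an edgeR adjusted p of 0.17 without control replicate 2. The call of Crk ended without control replicate 1 (0.33) or shRybp replicate 2 (0.20).

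Of 18 genes of the PI3K and Akt step, 1 rose and 4 fell (background 16.3% and 16.7%), with a median of -0.05. Pik3r1, the p85 regulatory subunit that binds phosphorylated Irs proteins, had 36.7 and 36.4 FPKM in the controls and 20.4 and 17.8 in shRybp. It fell by 0.97 on the log2 scale (SE 0.07, edgeR adjusted p = 1.3e-06). Pik3ip1, an inhibitor of PI3K, fell by 0.76 (8.47 and 8.87 against 5.05 and 5.46 FPKM), and Phlpp1, a phosphatase of Akt, fell by 0.49 (28.8 and 30.0 against 20.98 and 21.9 FPKM). Akt1 rose from 57.7 and 55.97 to 73.1 and 77.1 FPKM (log2 ratio 0.37, edgeR adjusted p = 0.00062). Trib2 (-0.23, named after its value was seen) was the other gene that fell, a call that ended without control replicate 1 (edgeR adjusted p = 0.074) or shRybp replicate 1 (0.074).

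Of 19 genes of mTOR signalling and translation control, 3 rose and 2 fell (background 16.3% and 16.7%), with a median of -0.06. Ddit4, a stress-induced inhibitor of mTOR, had 52.1 and 68.7 FPKM in the controls and 33.0 and 41.7 in shRybp and fell (log2 ratio -0.73, edgeR adjusted p = 0.00065). The translation repressor genes Eif4ebp1 (0.61) and Eif4ebp2 (0.31) rose, as did the kinase gene Gsk3a (0.35), and Gsk3b (-0.18, named after its value was seen) fell. The call of Gsk3b ended under 8 of 12 alternatives, with an edgeR adjusted p of 0.32 without shRybp replicate 2, which also ended the call of Gsk3a (0.067). Without control replicate 1 (0.090) or control replicate 2 (0.12) the call of Gsk3b ended as well.

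The FoxO list held the most genes that fell. Of 21 FoxO factors and common FoxO targets, 11 fell and 1 rose, with a median log2 ratio of -0.29, beside a background of 16.7% lower and 16.3% higher over all genes tested. Like the other lists, it was chosen with earlier results of these data known, so the count is a description. Pdk4, a kinase that limits glucose oxidation, had 2.36 and 2.51 FPKM in the controls and 0.87 and 0.92 in shRybp (log2 ratio -1.48, SE 0.18, edgeR adjusted p = 5.8e-05). The transcription factor gene Klf15 fell from 8.19 and 7.92 to 4.21 and 4.62 FPKM (-0.90, edgeR adjusted p = 5.4e-05), and the ubiquitin ligase gene Fbxo32 from 2.40 and 2.97 to 1.35 and 1.60 FPKM (-0.90, edgeR adjusted p = 0.00035). Bnip3, a mitophagy gene that hypoxia also induces, had 21.4 and 35.7 FPKM against 7.86 and 14.6 (-1.37, edgeR adjusted p = 0.00092), and its call ended in DESeq2 (adjusted p = 0.053).

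Of these 12 calls 8 were kept under every alternative that gave the gene a value, those of Pdk4, Klf15, Fbxo32, Pik3ip1 (also in the PI3K list), Sesn3 (-0.89), Txnip (-0.85), Ccng2 (-0.61) and Cat (-0.51), the last 4 named after their values were seen. DESeq2 called 8 of the 21 as lower and 0 as higher, and at an unadjusted p under 0.05, 2 were higher in edgeR. The factor genes Foxo1 (0.06, edgeR adjusted p = 0.72) and Foxo3 (-0.04, edgeR adjusted p = 0.79) did not pass, and Foxo4 (-0.29) fell. Foxo4, Bcl6 and Cited2 are named after their values were seen. The calls of Foxo4, Bcl6 (-0.32) and Cited2, the member that rose (0.40), ended when 1 library was left out. The highest adjusted p was 0.13 for Foxo4 and 0.21 for Cited2 (both without control replicate 1) and 0.16 for Bcl6 (without control replicate 2). Insr and Irs2, which are also known FoxO targets but were not on the list, rose.

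**Figure D5:**
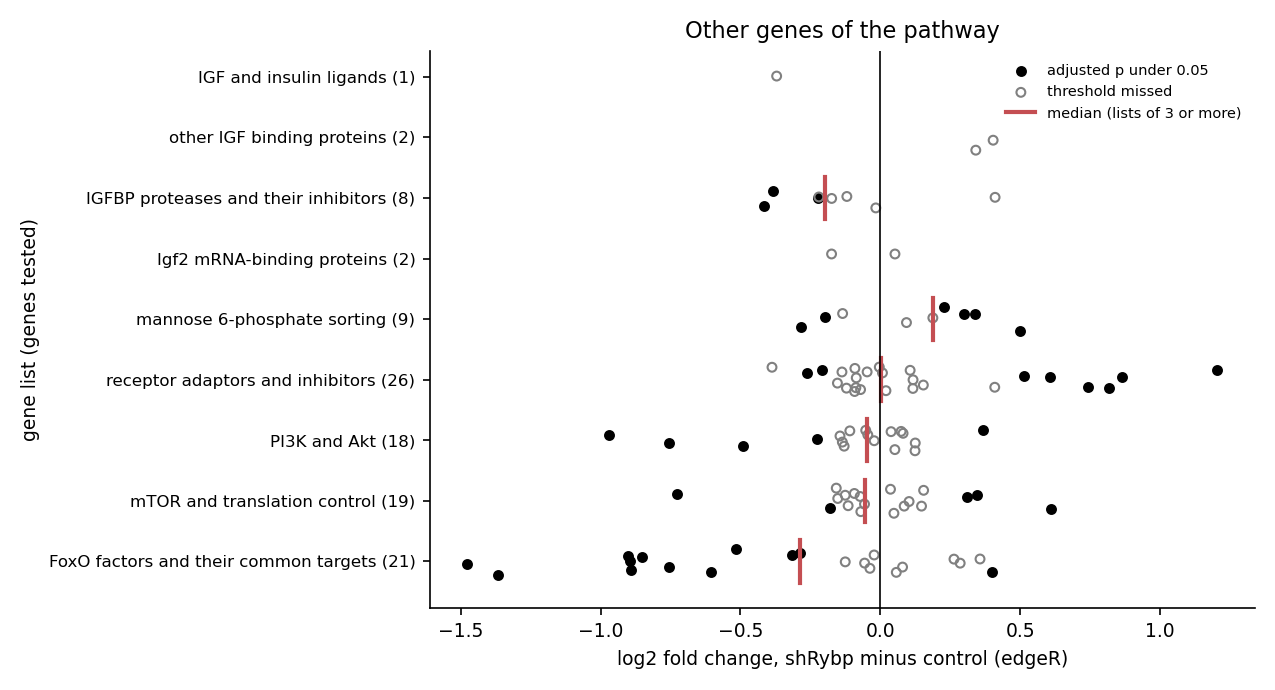
Log2 fold change of each tested gene of the 9 pathway lists, with genes past an adjusted p of 0.05 filled and the median of lists of 3 or more as a red bar. In the FoxO list 11 of 21 genes lie below zero as filled points, with a median of -0.29, while the PI3K and mTOR lists centre near zero.

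Markers of other neural cell types moved in the same libraries. Of 9 tested astrocyte markers all 9 fell in edgeR and 8 in DESeq2, beside 16.7% lower in edgeR over all genes tested. The 10 astrocyte markers listed summed to 646 to 662 FPKM in the controls and 264 to 289 in shRybp. Of 9 tested oligodendrocyte precursor markers 4 fell (summed 838 to 869 against 763 to 796 FPKM). Of 7 tested neuron markers 3 fell and 2 rose in edgeR, and 2 fell and 2 rose in DESeq2. The neuron markers had a median log2 ratio of -0.18 (summed 226 to 247 against 323 to 339 FPKM). The higher neuron sum came mainly from Gap43 (158 and 135 against 259 and 250 FPKM), so it shows no rise of the list as a whole. Syt1 (0.72) also rose, and Dcx (-1.22), Mapt (-1.05) and Snap25 (-0.46) fell, all named after their values were seen. 1 pericyte marker and 1 fibroblast marker were tested, Acta2 (1.52 and 1.40 FPKM against 2.60 and 2.24) and Foxc1 (1.74 and 1.55 against 2.12 and 2.56), and both rose in edgeR. DESeq2 called 0 of these 2 genes, and limma called Acta2 but not Foxc1. The part of these cell types in the changes of Igfbp4, Igfbp5 and the FoxO list was not tested, and in bulk RNA fewer cells of a type and less RNA per cell cannot be told apart.

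Genes with the pattern most like Igfbp4 were found by the Euclidean distance between centred log2 CPM (counts scaled to library size) over the 4 libraries. The nearest were the matrix protein gene Fbln1 (distance 0.07; 5.91 and 5.15 FPKM in the controls, 12.1 and 13.5 in shRybp), Ccdc184 (0.12) and the membrane-binding protein gene Anxa6 (0.14). For Igfbp5 they were the phosphatase gene Dusp26 (0.08; 1.11 and 1.79 against 0.45 and 0.66 FPKM), the phospholipase gene Pld2 (0.22) and the secreted C1q-like gene C1ql1 (0.30). As in Igfbp5, Dusp26, Pld2 and C1ql1 were higher in control 2 than in control 1 and in shRybp 2 than in shRybp 1. The choice by distance over these libraries favours such a shared order. With 4 libraries such likeness rests mainly on the difference between the groups.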

How the data were processed

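The file of the authors holds, per the file headers, a count of reads for each gene in each library (whole numbers) and the FPKM values they deposited beside it. The step from count to FPKM differed between libraries by a factor that was the same for all genes, to within 3.6e-08 of its value. The submitters' processing notes name mm10. No aligner, counting program, annotation or strand setting is named in the sources. The smallest total count of a gene is 40. Strands came from GENCODE M21, which held 13870 of 13881 identifiers, and upstream sequences from RefSeq (GRCm38.p6).

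Genes whose FPKM averaged at least 1 over the 4 libraries (12062) were fitted as counts with edgeR 4.0.16 (TMM, quasi-likelihood, two-sided, group as the only term) in R 4.3.3, and p-values were Benjamini-Hochberg adjusted over all of them. The standard error is the size of the log2 ratio over the root of F. Alternatives were library totals, DESeq2 1.42.0, no filter, an FPKM average of 5 or more, limma 3.58.1 on log2(FPKM + 1), log2(FPKM + 0.1) or quantile-normalized values, a replicate block, and leaving out each library. The fit was also run on simulated counts with far fewer changed genes than were called here, so its false calls in these data were not measured. Members and lists were chosen with earlier results of these data known. The text names all members, each list's called genes up to the 4 largest, each ligand analysed, the 3 genes nearest in pattern to Igfbp4 and to the member that fell most, and the nearest gene of the table on each side of a member. One item is not reported here.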

Additional observations from a re-analysis of the deposited data

How the results depend on the processing

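The counts of 4 members that rose and 1 that fell were kept under the 12 alternatives, except that 3 rose without shRybp replicate 2, where Irs2 lost its call. Igfbp4 had a log2 ratio between 1.06 and 1.31. Igf1r, which did not pass in any setting, had a log2 ratio of -0.0712 without control replicate 1 and up to 0.139 (without control replicate 2). Other genes that did not pass and changed sign were Insl6 (0.0373 without shRybp replicate 1, -1.03 without shRybp replicate 2), Rpl37a (0.00624 without control replicate 1, -0.112 without control replicate 2) and Top2a (-0.0226 without control replicate 2, 0.0718 without control replicate 1; also below zero without shRybp replicate 1). Of the 105 list genes, 8 rose with a mean FPKM of at least 5, where fewer genes were tested. With 1 library left out, 9 to 15 rose and 18 to 21 fell. The replicate numbers are shared between groups, but with only 2 pairs they do not show that libraries are paired; deviations of same-numbered libraries correlated at 0.10 over 12062 genes. With the replicate number as a block, 4 members rose and 1 fell, and 20 list genes rose and 30 fell. The depth leaves genes of few FPKM, such as Insl6, with wide intervals (-1.32 to 0.58).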
